A study of Homo sapiens with 34 samples.

Results

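Chromosome 12 was followed here through its annotated 3′ UTR intervals, the units in which the reads of these libraries were counted. An interval belonged to the set when it lay on chromosome 12, carried the name of a single gene, held at least 1 read and had under 10% multimapped reads over all libraries. Of 4361 chromosome 12 intervals in the files, 2132 met this rule, from 749 genes, among 34129 intervals that met it genome-wide and 71668 intervals in all. A further 1698 chromosome 12 intervals of a single gene held no read, 489 reached the multimapped limit and 42 named several genes. The set held 75.5% of the chromosome 12 reads, and the intervals left out for multimapping held 23.7%. Ordered by start on hg38, the set ran from SLC6A12 (chr12:190077-191067, minus strand) to ZNF268 (chr12:133193434-133193533, plus strand). The intervals were short, with a median of 173 bases, and a gene had up to 23 of them, so that neighbours of 1 gene share transcripts and are not independent.

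The cells were hTERT-RPE1, a human retinal pigment epithelial line immortalised with telomerase, in which doxycycline (0.5 µg/mL, in every sample) drove either knockdown or overexpression of CCND1, the gene of cyclin D1. By the study's methods a shRNA against the 3′ UTR of CCND1 was induced in both lines, and the overexpression line expressed together with it a CCND1 allele that the shRNA spares. From day 4 of induction cells received 10 µM 4-thiouridine (s4U), a uridine analogue that reads as C after alkylation, for 24 h and were then chased in 1 mM uridine for up to 1440 min, while unlabelled samples received 10 µM uridine in place of s4U. The 34 libraries, 17 per line, formed 4 time courses, numbered 1 and 2 within each line. In the study's account knockdown cells are large and overexpression cells small. Both lines were made by lentiviral transduction and selected by sorting or antibiotic. By the study's account they were polyclonal in their CCND1 level, and nothing in the labels ties a course to a culture of its own, so that p-values measure the spread between courses only. The shRNA target lies in the part of CCND1 that these libraries read, and CCND1 reads therefore check neither label.

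Cells with an extra copy of a chromosome usually carry more mRNA from most of its genes, roughly in proportion to the copies. A change in regulation can move scattered genes in both directions. A shift of a whole chromosome is therefore read from the middle of its distribution and not from single genes, which does not show its cause. RPE1 cells are near diploid, carry extra material of the long arm of chromosome 10, and are known for cells with an additional chromosome 12 that spread in culture. Chromosome 12 holds CDK4, MDM2, GAPDH, keratin and tubulin genes and many genes of replication and mitosis. DNA copy number was not measured in these libraries, and its part in any difference below was not tested.

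The libraries held 14712332 to 44480703 reads in 3′ UTR intervals, of which 890517 to 3157953 fell in the chromosome 12 set. Of the markers of retinal pigment epithelium, MITF and PAX6 were measured in all libraries, with medians of 75.1 and 53.7 CPM (read counts scaled to library size) in knockdown and 37.7 and 97.0 CPM in overexpression, while RPE65, RLBP1, BEST1, TYR and TTR had medians of 0 in both lines. KRT8 and KRT18, keratins of simple epithelia that lie on chromosome 12, had medians of 499.9 and 558 CPM in knockdown and 274 and 309 CPM in overexpression. KRT7 was low, with medians of 9.95 and 5.09 CPM, and the epithelial markers CDH1 and EPCAM had medians of 0 in both lines. Among fibroblast markers COL1A1 had medians of 26.5 CPM in knockdown and 23.5 CPM in overexpression, while those of COL1A2, COL3A1, LUM, DCN and PDGFRA were at or near 0, and the median of PTPRC, a blood cell marker, was 0. In earlier results of these data 3 libraries stood apart from the rest, the unlabelled libraries of both first courses and the 720 min library of overexpression course 1, and the gap and most counts of calls below are also given without them.

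The chromosome 12 set was, at its median, slightly higher in knockdown than in overexpression. Within each course the read counts of an interval were added up over the 6 kinds of sample that no course lacks (unlabelled, 0, 180, 360, 720 and 1440 min) and compared, 2 courses against 2, by edgeR's quasi-likelihood test, in which positive log2 differences are higher in knockdown. The test kept 1416 chromosome 12 intervals of 680 genes, which held nearly all reads of the set, beside 21339 intervals of the other 21 autosomes. The median log2 difference was 0.09 on chromosome 12 and -0.03 on the other autosomes, a gap of 0.12 or 8.59%. No other autosome had a gap to the rest above 0.07, the value of chromosome 10, and the lowest was -0.11. The 21 other autosomes had a standard deviation of 0.039 in this gap. For comparison, mRNA in strict proportion to gene copies, with 3 copies in place of 2 in every cell of 1 line, would shift the log2 difference by 0.58. In bulk libraries such as these, a few cells with a large difference and many with a small one, or fewer cells and less RNA per cell, cannot be told apart.

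The gap was present in each comparison of 1 course with another between the lines. It was 0.11 for knockdown course 1 over overexpression course 1, 0.13 for knockdown course 1 over overexpression course 2, 0.09 for knockdown course 2 over overexpression course 1 and 0.12 for knockdown course 2 over overexpression course 2. Within a line, where both courses carry the same label, chromosome 12 stood at -0.01 for knockdown course 2 over course 1 and at -0.01 for overexpression course 2 over course 1. Chromosome 12 was the highest autosome in 3 of the 4 comparisons between lines. In the comparison of knockdown course 2 with overexpression course 1, chromosomes 19 and 22 were above it, the former at 0.13. Chromosome 19 also differed between courses of the same line, by 0.13 in knockdown and 0.11 in overexpression.

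**Figure D1:**
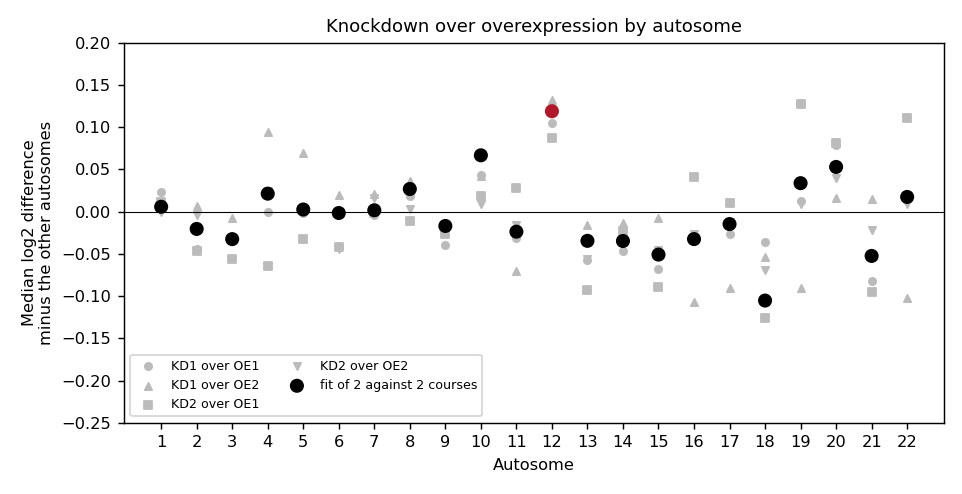
Median log2 difference between knockdown and overexpression (y axis) of each autosome (x axis) minus the median of all other autosomes. Large points are the fit of 2 against 2 courses, with chromosome 12 in red, and small grey symbols are the 4 single comparisons of a knockdown with an overexpression course. Chromosome 12 lay highest in the fit at 0.12, and its 4 single comparisons sat between 0.09 and 0.13.

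The same offset was seen in single libraries. For each library the level of chromosome 12 was taken as the median, over tested intervals, of log2 CPM minus the interval's mean over all 34 libraries, less the same median over the other autosomes. The 17 knockdown libraries had a lowest offset of -0.0045, a median of 0.04 and a highest of 0.11, and the 17 overexpression libraries a lowest of -0.14, a median of -0.08 and a highest of -0.02. The lines did not overlap, and at each of the 10 states, unlabelled or chase times of 0 to 1440 min, every knockdown library lay above every overexpression library. No other autosome had a set of 34 offsets without overlap between the lines. The difference between the line medians was 0.12 on chromosome 12. On chromosome 13 it was larger in size and opposite, at -0.135, but its libraries overlapped. The mean over courses was 0.043 ± 0.0075 in knockdown and -0.081 ± 0.018 in overexpression (SD, n = 2 courses each). Libraries of a course may share a culture, and no test was made over the 34.

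**Figure D2:**
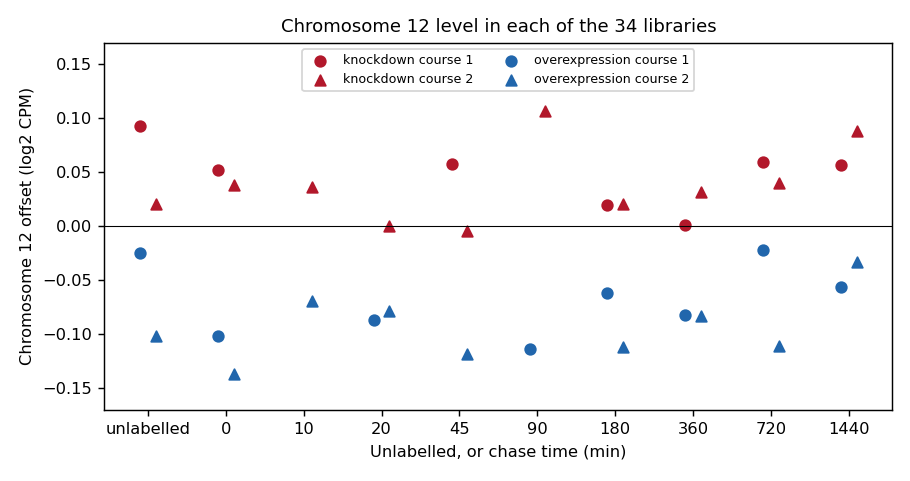
Offset of chromosome 12 against the other autosomes in log2 CPM (y axis) in each of the 34 libraries, by chase time or unlabelled state (x axis). Knockdown libraries are red and overexpression libraries blue, with circles for course 1 and triangles for course 2. Knockdown libraries lay between -0.0045 and 0.11 and overexpression libraries between -0.14 and -0.02.

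With only the intervals of at least 3 CPM, the knockdown libraries lay between 0.02 and 0.13 and the overexpression libraries between -0.10 and -0.02, again without overlap, and chromosome 12 was again the only autosome without it. The 3 libraries that stood apart followed their lines, at 0.09 for unlabelled knockdown course 1, -0.03 for unlabelled overexpression course 1 and -0.02 for 720 min of overexpression course 1. Without these 3 libraries the gap in the fit was 0.11. In the 0 min libraries alone, 2 against 2, it was 0.09, with 1 autosome above it. In the unlabelled libraries alone it was 0.17.

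The shift ran through the whole distribution and did not rest on a tail. Chromosome 12 exceeded the other autosomes by 0.15 at the 10th percentile of the log2 difference, 0.15 at the 25th, 0.14 at the 75th and 0.23 at the 90th. Of the chromosome 12 intervals, 56.8% had a log2 difference above 0, beside 48.1% of the other autosomal intervals. Among intervals of at least 10 CPM, whose median standard error was 0.15, the shares above 0 were 63.7% (341 of 535) and 50.1%. All 4 course comparisons were above 0 in 31.6% of chromosome 12 intervals and 25.5% of the others, and all 4 below 0 in 19.8% and 27.2%. Leaving out every interval past the test's threshold on both sides left a gap of 0.09.

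**Figure D3:**
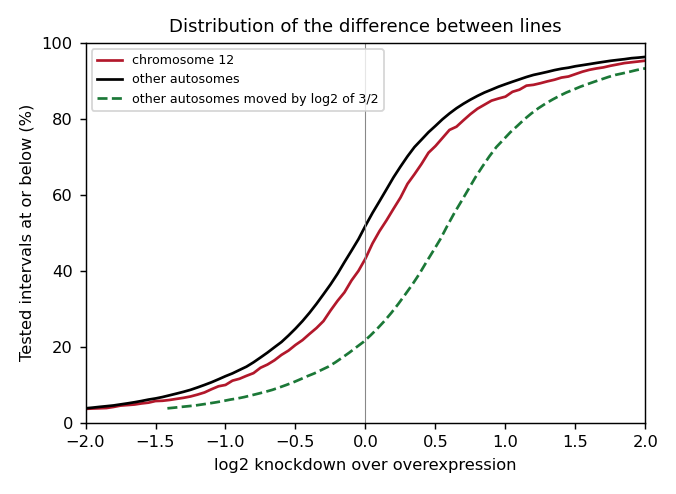
Share of tested intervals at or below a given log2 difference between knockdown and overexpression (y axis, percent) against that difference (x axis), for chromosome 12 in red and the other autosomes in black. The green dashed curve is the black curve moved by 0.58, the shift of 3 copies over 2 in every cell. The red curve ran to the right of the black one by 0.12 at the median and by 0.23 at the 90th percentile.

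The gap was of similar size at every level of abundance. It was 0.13 in the 592 chromosome 12 intervals under 1 CPM, 0.10 in the 140 of 1 to 3 CPM, 0.14 in the 149 of 3 to 10 CPM, 0.12 in the 382 of 10 to 100 CPM and 0.12 in the 153 above. The median GC content of chromosome 12 intervals was 42.3% and that of the others 42.9%, and after intervals were centred within 10 classes of GC content the gap was 0.13. Centring within 10 classes of length gave 0.14. Counting each gene once, by its interval with the most reads, gave 0.13 over 680 genes.

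Along the chromosome the shift was spread over both arms. On the side of the short arm, before the widest stretch without an annotated interval (chr12:34029695-38318349, between ALG10 and ALG10B), 323 intervals of 163 genes had a gap to the other autosomes of 0.11. On the side of the long arm 1093 intervals of 517 genes had a gap of 0.12. Each arm was above the other autosomes in all 4 course comparisons, by 0.13 to 0.21 on the short side and by 0.08 to 0.12 on the long side. The chromosome was then cut into 14 stretches of 10 Mb with at least 20 tested intervals each. In 13 of the 14 the median was above that of the other autosomes, beside 50.2% of 257 such stretches elsewhere. Among single other autosomes this share reached 83.3% of 6 stretches on chromosome 19 and 71.4% of 14 on chromosome 10.

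The highest stretch was that from 80 to 90 Mb, with a median log2 difference of 0.24 over 39 intervals, and above 0.15 followed those of 10 to 20, 20 to 30, 50 to 60 and 110 to 120 Mb. The stretch from 60 to 70 Mb, which holds HMGA2 and MDM2, had a median of -0.01 over 90 intervals. The last stretch, from 130 Mb to the end, was the only one below the other autosomes, with a median of -0.10 over 42 intervals of 23 genes. In it POLE, the catalytic subunit of the leading strand polymerase, was lower in knockdown (log2 difference -0.76 ± 0.15 SE, adjusted p = 0.022), and ULK1, the kinase that starts autophagy (0.65, adjusted p = 0.022), and GOLGA3, a golgin (0.53, adjusted p = 0.031), were higher. At a width of 5 Mb, 22 of 24 stretches lay above the other autosomes, beside 50% of 390 elsewhere. The highest, from 20 to 25 Mb, had a median of 0.60 over 26 intervals of 14 genes, of which 13 intervals were under 1 CPM, and its 6 intervals of at least 10 CPM had a median of 0.37. The next highest 5 Mb stretches were at 0.29 (115 to 120 Mb) and 0.27 (50 to 55 Mb), and their intervals of at least 10 CPM, 15 and 47 in number, had medians of 0.065 and 0.23.

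**Figure D4:**
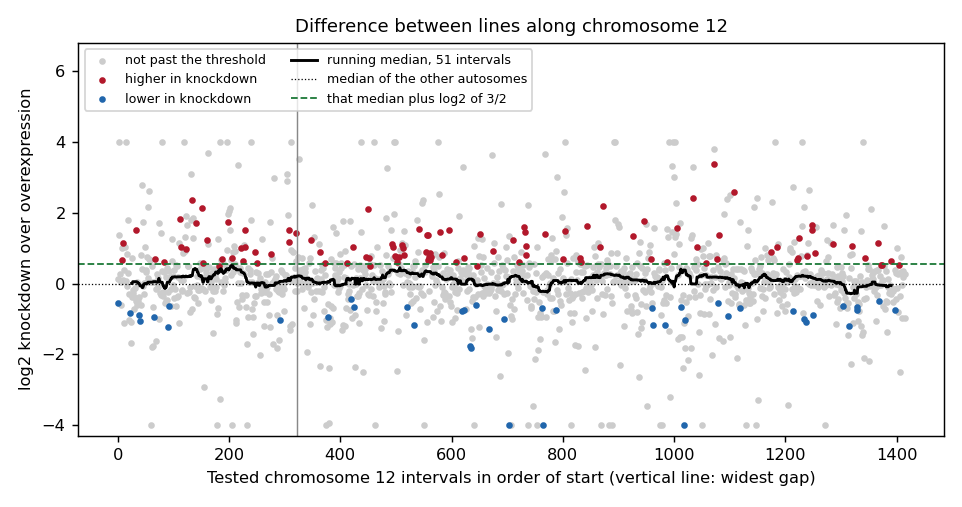
Log2 difference between knockdown and overexpression (y axis) of the 1416 tested chromosome 12 intervals in order of start (x axis). Red points were higher and blue points lower in knockdown past an adjusted p of 0.05, the black line is the running median of 51 intervals, the dotted line the median of the other autosomes, the dashed green line that median plus 0.58, and the grey vertical line the widest gap. The 46 intervals beyond 4 in size are drawn at 4 or -4, and the running median stayed below the dashed line throughout.

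The label on chromosome 12 transcripts gave a second readout of the same libraries. In 399 chromosome 12 intervals of 381 genes, and 5671 of the other autosomes, at least 5000 T bases were covered in each unlabelled, 0 min and 360 min library. The T>C conversion rate at 0 min, less the unlabelled rate, had a median of 0.889% in the first and 0.878% in the second knockdown course on chromosome 12, against 0.892% and 0.870% on the other autosomes. In the overexpression courses it was 0.963% and 0.956% on chromosome 12, against 0.939% and 0.934% elsewhere. The ratio of knockdown to overexpression thus lay 0.03 lower on chromosome 12 than elsewhere on the log2 scale, the 18th of 22 autosomes, whose other members ran from -0.07 to 0.07.

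The share of that label left after 360 min was compared in the same way. On chromosome 12 its median was 41.2% in the first and 46.4% in the second knockdown course, beside 41.7% and 45.7% on the other autosomes. In overexpression it was 39.3% and 35.1%, beside 40.0% and 32.9%. The difference between the lines was 1.66 percentage points smaller on chromosome 12 than elsewhere, the 21st of 22 autosomes, whose other members ran from -2.23 to 1.98. It was 0.54 and 0.10 points larger at 180 and 720 min, so that the direction at 360 min was not kept at these times. At 360 min, knockdown course 1 over overexpression courses 1 and 2 gave -1.10 and -1.65 points. Knockdown course 2 gave 0.05 and -2.09 points. The gap in abundance was 0.14 where the least label was left, 0.07 in the middle class and 0.16 where the most was left. The 3 classes were of equal size over all autosomal intervals measured, with limits at 29.3% and 55.5%, and held 131, 149 and 119 chromosome 12 intervals. The share left is noisy in single intervals, where it ran from -463% to 1281%.

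Of the 1416 chromosome 12 intervals, 148 differed between the lines at an adjusted p under 0.05 in edgeR's quasi-likelihood test, 10.5% beside 8.75% of all 23414 tested intervals. The test was of a difference from 0, and the common shift of the chromosome was not taken out. Of these, 105 were higher in knockdown, 7.42% beside 4.92% of all tested intervals, and 43 were lower, 3.04% beside 3.83%. The calls came from 97 and 37 genes, and no gene had calls in both directions. Every 10 Mb stretch held intervals called higher, most of them, 29, in that from 50 to 60 Mb, which is also the richest in genes. Without the 3 libraries that stood apart the counts were 171 higher and 72 lower, 12.3% and 5.18% of the chromosome 12 intervals beside 8.70% and 7.21% of all.

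Genes of the cell cycle and DNA replication were more often lower than higher in knockdown. Of 34 tested chromosome 12 genes of this role, each counted by its interval with the most reads, 15 were lower in knockdown and 2 higher, with a median log2 difference of -0.59, against 0.17 over all 680 genes. The lower genes were 44.1% of the list and the higher ones 5.88%. Counted in the same way, 95 of the 680 genes were higher (14.0%) and 30 lower (4.41%), and of 12266 genes of all chromosomes 8.61% were higher and 5.87% lower. Without the 3 libraries that stood apart 19 genes of the list were lower. This list, like the others, was chosen with earlier results of these data known, and its direction is no independent evidence. TMPO, which encodes lamina-associated polypeptides of the nuclear envelope, had 98.0 and 88.8 CPM in the knockdown courses and 211 and 210 CPM in the overexpression courses (log2 difference -1.17 ± 0.12 SE, adjusted p = 0.0018). Over single libraries it lay between 69.8 and 129 CPM in knockdown, with a median of 81.0, and between 174 and 252 CPM in overexpression, with a median of 224, without overlap.

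RFC5, a subunit of the clamp loader of replication, had 31.1 and 34.7 CPM in knockdown and 71.8 and 69.3 CPM in overexpression (-1.10 ± 0.14, adjusted p = 0.0032). PARPBP, a regulator of homologous recombination, had 30.3 and 31.0 CPM against 63.5 and 61.7 CPM (-1.03 ± 0.13, adjusted p = 0.0036). For both genes the 34 libraries did not overlap between the lines. KNTC1, a kinetochore protein of the spindle checkpoint, had 15.5 and 15.6 CPM against 33.8 and 37.0 CPM (-1.19 ± 0.15, adjusted p = 0.0035), and NCAPD2, a condensin subunit, 212 and 177 CPM against 378 and 375 CPM (-0.95 ± 0.13, adjusted p = 0.0047). Some libraries of these 2 genes overlapped. RAD51AP1, a protein of homologous recombination, was less even, with 21.6 and 20.1 CPM against 54.6 and 32.5 CPM (-1.06 ± 0.23, adjusted p = 0.028), and its highest overexpression library had 134 CPM beside a median of 36.2 CPM. Without overexpression course 1 its log2 difference was -0.64 and did not pass the test.

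Also lower in knockdown were FOXM1, the transcription factor of G2 and M phase genes, CDCA3, ESPL1, which encodes separase, TIMELESS, a replication fork protein, UNG, the uracil DNA glycosylase, CIT, citron kinase of cytokinesis, and SENP1, a SUMO protease, with log2 differences between -0.63 for CDCA3 and -0.96 for SENP1. CDK17 (0.70) and CDK2AP1 (0.72) were the 2 that were higher. CDK4, the kinase that cyclin D1 activates, had 330 and 301 CPM in knockdown and 302 and 407 CPM in overexpression and did not pass the test (-0.17 ± 0.16, adjusted p = 0.61). It passed as lower without the 3 libraries that stood apart (-0.41) and in the sums over 0, 180, 360 and 1440 min (-0.40). CDK2 (-0.11 ± 0.12, adjusted p = 0.7) and CDKN1B, the inhibitor p27 (-0.21 ± 0.16, adjusted p = 0.5), did not pass it either.

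Promoter sequence was read for the cell cycle genes because 15 of them were lower while the chromosome's median was above that of the other autosomes. Of the 15 lower genes 13 had a RefSeq promoter (GRCh38.p14), taken as the 250 bases before the start. CCAAT, the letters bound by NF-Y, was found on either strand in 11 of the 13, in 8 of 16 other genes of the list and in 33.0% of all 27305 promoters. GGCGGGAA, a form of the E2F site, was in 4 of 13, 4 of 16 and 2.77%, and TTTGAA, the cell cycle genes homology region (CHR), in 4 of 13, 2 of 16 and 13.6%. Among the 502 tested chromosome 12 genes with a promoter, 35.3% held CCAAT, 6.77% GGCGGGAA and 9.96% TTTGAA. TTCCCGCC, the E2F letters on the opposite strand, can share bases with CCAAT. These are matches of letters, and no binding was measured. Windows of 30 bases are shown for 4 of the lower genes, 1 for each motif and a second for CHR, with the motif in capitals and the strand of the gene.
TMPO, CCAAT, hg38 chr12:98515514-98515543, plus strand: cgagccgtctcgCCAATcaccgccgcgctt
RAD51AP1, E2F, hg38 chr12:4538857-4538886, plus strand: gtctggttttgGGCGGGAAttgaaaccgcc
NCAPD2, CHR, hg38 chr12:6493945-6493974, plus strand: cagccgttgagaTTTGAActcggtatttgt
PARPBP, CHR, hg38 chr12:102120153-102120182, plus strand: gctcccggggcctcccgcgaggTTTGAAct

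Genes of matrix, adhesion, lysosome and membrane traffic lay almost all above 0. Of 27 tested, 10 were higher in knockdown and none lower, 26 had a log2 difference above 0, and the median was 0.66. The higher genes were 37.0% of the list beside 14.0% of all chromosome 12 genes, and those above 0 were 96.3% beside 64.3%. Without the 3 libraries that stood apart 15 were higher. GABARAPL1, an ATG8 protein of autophagosomes, had 29.4 and 29.6 CPM in the knockdown courses and 6.82 and 4.76 CPM in the overexpression courses (2.35 ± 0.21, adjusted p = 0.0012). Its 34 libraries ran from 20.4 to 43.5 CPM in knockdown, with a median of 30.4, and from 1.78 to 12.8 CPM in overexpression, with a median of 6.63, without overlap. LRP1, an endocytic receptor, had 439 and 435 CPM against 167 and 167 CPM (1.39 ± 0.11, adjusted p = 0.00094), and CD63, a tetraspanin of late endosomes and lysosomes, 3494 and 3991 CPM against 2005 and 2413 CPM (0.76 ± 0.13, adjusted p = 0.010).

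Others of this group that were higher included IGFBP6, a secreted binder of IGFs (1.08), ITGA5, the fibronectin receptor's alpha chain (0.90), RAB5B of early endosomes (0.80), ITGA7 (0.66) and ARF3 (0.58). EMP1, a membrane protein of epithelia, did not pass the test (0.01 ± 0.13, adjusted p = 0.98), and neither did RAB35 (-0.05 ± 0.13, adjusted p = 0.89).

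Of the 10 genes with the largest differences, DRAM1, a lysosomal membrane protein induced by p53, was the most abundant, with 132 and 109 CPM in knockdown and 47.1 and 34.5 CPM in overexpression (1.56 ± 0.18, adjusted p = 0.0026). Its libraries ran from 84.8 to 212 CPM with a median of 110 in knockdown and from 25.4 to 64.96 CPM with a median of 36.4 in overexpression. MANSC1, a membrane protein, had 20.1 and 14.4 CPM against 3.48 and 4.34 CPM (2.14 ± 0.24, adjusted p = 0.0023), and SYT1, a synaptotagmin of vesicle fusion, 21.3 and 23.8 CPM against 7.45 and 7.18 CPM (1.62 ± 0.18, adjusted p = 0.0020). The others were TMEM233 (1.65), BHLHE41, a circadian repressor (1.505), FGD4, an exchange factor for Cdc42 (1.501), TSPAN9, a tetraspanin (1.498), HSPB8, a small heat shock protein (1.498), and PTPRR, a tyrosine phosphatase (1.48). Of the 10, the libraries of GABARAPL1, MANSC1, SYT1, DRAM1 and FGD4 did not overlap between the lines. The 10 were picked for their differences in these same libraries, so the lack of overlap is no independent evidence. The 10 lowest also held DDX11, a helicase of chromosome cohesion (-1.03), and RNFT2 (-0.998). Neither was on the list of cell cycle genes counted above, and DDX11 was counted under translation and RNA processing.

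Of 23 tested cytoskeleton and keratin genes, 8 were higher, 1 lower and the median was 0.24. The share called higher was 34.8% beside 14.0% of all chromosome 12 genes, and the 1 lower gene was 4.35% beside 4.41%. The count of higher genes was 9 without the 3 libraries that stood apart, 5 without knockdown course 1 and 3 without knockdown course 2. TUBA1A had 443 and 459 CPM in knockdown and 227 and 215 CPM in overexpression (1.03 ± 0.11, adjusted p = 0.0022), while TUBA1B, a more abundant alpha-tubulin nearby on the chromosome, had 6991 and 7370 CPM against 9409 and 10038 CPM (-0.44 ± 0.10, adjusted p = 0.031). KRT8 (0.77), KRT18 (0.62), PXN, which encodes paxillin of focal adhesions (0.85), LIMA1 (0.49) and PPFIBP1 (0.57) were higher. Keratins 8 and 18 and the tubulins have near-identical copies elsewhere in the genome, so that reads may be split between copies. The KRT8 interval that stayed under the multimapped limit held 42.2 and 49.0 CPM in the knockdown courses. As a marker, scaled differently, KRT8 had a median of 499.9 CPM in knockdown libraries, so most of its reads lay outside this interval.

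Metabolic genes had the same median as all chromosome 12 genes, 0.17. Of 30 tested, 6 were higher, 20% beside 14.0% of all chromosome 12 genes, and none lower. Without the 3 libraries that stood apart 12 were higher. GAPDH, the glycolytic enzyme often used as a reference, had 4594 and 5242 CPM in knockdown and 4596 and 4988 CPM in overexpression (0.04 ± 0.11, adjusted p = 0.91). SCARB1, the receptor for high density lipoprotein (1.15), ALDH2, mitochondrial aldehyde dehydrogenase (1.02), SLC2A3, a glucose transporter (0.98), COX14 (0.73) and MGST1, a glutathione transferase (0.69), were higher. AACS, acetoacetyl-CoA synthetase, passed narrowly, at the threshold of 0.05 after rounding (0.52 ± 0.13).

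Of 29 tested signalling and transcription factor genes, 5 were higher, 17.2% beside 14.0% of all chromosome 12 genes, and none lower, with a median of 0.10. The count of higher genes was 7 without the 3 libraries that stood apart and 3 without knockdown course 1. WNT5B, a Wnt ligand, had 754 and 801 CPM in knockdown and 347 and 363 CPM in overexpression (1.13 ± 0.11, adjusted p = 0.0016), and HMGA2, a chromatin protein of proliferating cells, 521 and 459 CPM against 212 and 256 CPM (1.07 ± 0.14, adjusted p = 0.0040). MDM2, the ubiquitin ligase of p53, which was counted with the cell cycle genes, had 183 and 134 CPM against 148 and 118 CPM and did not pass the test (0.25 ± 0.18, adjusted p = 0.48). Of its 3 tested intervals 1 was lower in knockdown (adjusted p = 0.036), with no read in the knockdown courses and 0.75 and 0.22 CPM in the overexpression courses. Of 25 tested genes listed under translation and RNA processing, 1 was lower, 4.00% beside 4.41% of all chromosome 12 genes, and none higher. The median of the list was 0.04. Its 1 lower gene was DDX11, the helicase of chromosome cohesion, whose role lies outside translation, and no other gene of the list passed the test. Without the 3 libraries that stood apart 2 were lower. Of the HOXC cluster 2 genes were tested, both under 10 CPM, and neither passed. The 510 tested genes in none of these lists had a median of 0.19. Their gap to the other autosomes, each gene counted once, was 0.14. Of these 510, 64 were called higher and 13 lower. Over all 680 chromosome 12 genes it was 95 and 30, or 14.0% and 4.41%.

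**Figure D5:**
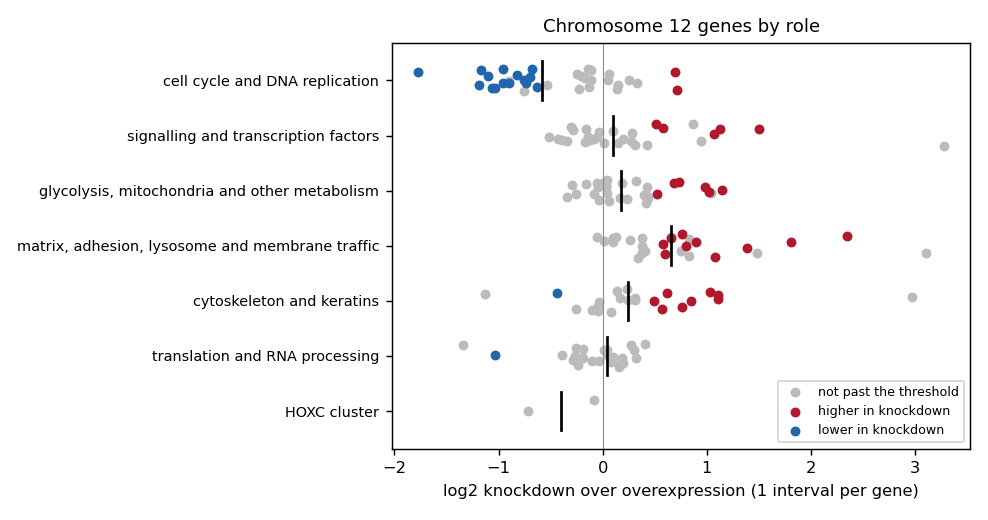
Log2 difference between knockdown and overexpression (x axis) of the tested chromosome 12 genes of 7 roles (y axis), 1 point per gene by its interval with the most reads, spread vertically for view. Red and blue points passed an adjusted p of 0.05 and black bars are medians, which ran from -0.59 in cell cycle and DNA replication to 0.66 in matrix, adhesion, lysosome and membrane traffic.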

How the data were processed

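Libraries of 75 ng RNA were made and read by the authors' sequencing service as 3′ end libraries (100 nt reads). The deposited tables hold raw counts of reads, multimapped reads, covered T bases and T>C conversions per 3′ UTR interval, made with SLAMdunk 0.4.3 on hg38 per the file headers and labels. The deposited CPM column and the deposited conversion rate, a fraction, were used only to check the counts. No source used here names the annotation release. T content of all 34129 intervals of the rule equalled that of hg38. Samples were grouped by the titles.

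Counts were summed per course and tested with edgeR 4.0.16 (R 4.3.3, TMM, filterByExpr, quasi-likelihood, Benjamini-Hochberg over 23414 intervals, threshold 0.05), tested first on simulated data. CPM in the text is scaled by TMM over tested intervals, except for markers. Medians over intervals carry no test. Reads have no molecular identifiers. Named genes were the 10 largest and 10 smallest differences past the threshold with at least 10 CPM and 1 sign in the 4 course comparisons, list members of at least 10 CPM, the first and last member, and GAPDH, CDK4 and MDM2. Some genes that this rule allows are not reported here. ULK1 and GOLGA3 were added as the other called genes of the last stretch. The members and lists were chosen with earlier results of these data known. Alternatives included DESeq2 1.42.0, other filters, units and libraries.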

Additional observations from a re-analysis of the deposited data

How the results depend on the processing

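The gap of chromosome 12 over the other autosomes stayed above 0 in all 19 alternatives, between 0.090 and 0.17, and chromosome 12 had the highest autosomal median in 15 of 17 fits, the exceptions being the fit without knockdown course 1 and that of the 0 min libraries alone. It moved by more than 0.019, the SD of the 4 course comparisons, in the 0 min libraries alone (0.090), the unlabelled libraries alone (0.17) and without overexpression course 1 (0.15). With single courses left out it ran from 0.11 to 0.15. Stretches of 20 Mb put 100% of bins above the other autosomes, beside 52.1% elsewhere. The calls moved more, and the cause was not tested. On chromosome 12, higher and lower, and over all intervals, DESeq2 gave 157, 72 and 3446, no filterByExpr 146, 66 and 3468, only 0, 180, 360 and 1440 min 151, 70 and 3400, the 34 libraries with time as a factor 224, 103 and 5222, the sums without 3 libraries that stood apart 171, 72 and 3680, and the 0 min libraries alone 61, 25 and 1117. With edgeR the unlabelled libraries alone gave 0, 0 and 0, with 44 chromosome 12 intervals at an unadjusted p under 0.05, and no other tool was run on them. With single courses left out the chromosome 12 counts ran from 80 to 125 higher and from 34 to 58 lower, and all calls from 1816 to 2921.

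With the replicate block, replicate numbers as a term in the fit, chromosome 12 had 219 higher and 97 lower calls and all intervals 5163, and the gap was 0.13. Across single intervals, deviations of same-numbered courses correlated at 0.059. Chromosome medians of course 2 over course 1 were nearer to each other in the 2 lines. In knockdown and overexpression they were 0.13 and 0.11 on chromosome 19, 0.12 and 0.09 on 22, and -0.08 and -0.09 on 4. Chromosome 20 was less alike, at 0.0025 and 0.045. The numbers may thus pair the samples, which 2 pairs cannot settle. In the fit with the replicate block 17 matrix, adhesion, lysosome and traffic genes and 14 metabolic genes were higher and 4 genes of the translation list lower. Metabolic genes called higher were 11 without filterByExpr, 11 with 4 times, 15 with 34 libraries and 12 without the 3 libraries. Genes called lower on the translation list, which held DDX11, were 2 with DESeq2, at 10 CPM, with 4 times and with 1 interval per gene. They were 2 without the 3 libraries, 3 with sums per gene, 4 with 34 libraries and 0 at 0 min alone. At 0 min alone 4 cytoskeleton and 3 signalling genes were higher. With single courses left out, cytoskeleton genes called higher ran from 3 to 7 and signalling genes from 3 to 5. In the unlabelled libraries alone every list had 0 calls.

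The named genes gave 367 alternative values, of which 332 kept direction and side of the threshold, 26 lost the call, 2 gained it, both CDK4, and 7 changed sign. With single courses left out 1 call was lost, that of RAD51AP1 without overexpression course 1. All sign changes were in GAPDH and CDK4, neither of which had passed the test. GAPDH was at -0.0091 with 1 interval per gene, -0.0058 with sums per gene and -0.19 in unlabelled libraries, where CDK4 was at 0.60. With single courses left out GAPDH ran from -0.063 to 0.13 and CDK4 from -0.37 to 0.073. The label ratio moved to -0.040 without overexpression course 2, and ran from there to -0.024 with single courses left out. The share of label left differed by 0.54 points at 180 min and 0.10 at 720 min, and ran from -2.18 to -0.51 with single courses left out. The values are relative within a library, so a shift shared by both lines could not be seen, and with 2 courses per line the spread is poorly known.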
